A study of Mus musculus with 12 samples.

Results

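The microRNA gene probe sets of the mouse hypothalamus are described here, namely all genes whose symbol begins with Mir and a number in the annotation of the array. A gene was a member where a probe set with that symbol alone reached a log2 signal of 6 on at least 3 of 12 arrays. Of 186 such genes 184 met this, among 17186 genes that met it in all. They were 180 microRNA genes and 4 long host transcripts (Mir100hg, Mir17hg, Mir670hg and Mir99ahg). Mir205 and Mir695 fell short, each with 6 reached on 1 array and a highest signal of 6.01 and 6.03. Just inside the minimum lay Mir100, Mir17hg and Mir652, each at 6 or more on 3 arrays, with mean signals of 5.91, 5.92 and 5.94.

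Hypothalamic RNA came from male C57Bl/6J mice aged 21 weeks, and every group of mice was measured on 3 Affymetrix Mouse Gene ST arrays. Control mice (CON) drank plain water, ASP mice received the sweetener aspartame at 46 mg/kg body weight from conception on, and CGP mice received CGP 39551, which blocks the glutamate site of NMDA receptors (NMDAR), at 5 mg/kg until postnatal day 28. The ASP+CGP group had both agents. All mice of a group gave RNA to 1 pool, so the 3 arrays are repeat measurements of that pool, every p-value here measures the spread between arrays and not between mice, and treatment and pool cannot be told apart.

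MicroRNAs are cut from longer RNA, first to a hairpin by Drosha in the nucleus and then to a short duplex by Dicer1, and an arm of the duplex guides an Argonaute protein to messages that pair with its seed. Many microRNA genes lie in clusters, and a large one lies on chromosome 12 in the imprinted Dlk1-Dio3 domain. There Dlk1, Rtl1 and Dio3 are read from the paternal chromosome, while Meg3, Rian and the microRNAs are read from the maternal one, and the cluster from Mir379 to Mir410 is known as brain-enriched and responsive to neuronal activity. A probe set of this array does not tell a mature microRNA from its hairpin or from the long RNA that holds it, and in bulk tissue fewer cells of a type and less RNA per cell cannot be told apart.

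Positions and sequences were taken from RefSeq on GRCm38.p6, which held a mature sequence for 163 members. The core from Mir379 to Mir410 held 38 microRNA genes in the RefSeq table, of which 27 were measured, all on the + strand. A further 9 members lay in the same domain outside the core, and 144 microRNA genes lay elsewhere. The hairpin of Mir379, the member with the largest difference from CON, lies at chr12:109709060-109709125 (+ strand) and reads as follows, with both mature arms in capitals.
Mir379 hairpin: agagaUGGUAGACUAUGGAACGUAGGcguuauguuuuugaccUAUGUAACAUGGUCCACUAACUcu
The next lines hold mature sequences of the members on which the results turn, 5′ to 3′, with the seed (bases 2 to 8) in capitals.
miR-379-5p, chr12:109709065-109709085 (+ strand): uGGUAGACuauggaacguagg
miR-379-3p, chr12:109709102-109709123 (+ strand): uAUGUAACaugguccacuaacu
miR-411-5p, chr12:109710190-109710210 (+ strand): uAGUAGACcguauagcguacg
miR-411-3p, chr12:109710225-109710246 (+ strand): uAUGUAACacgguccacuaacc
miR-380-3p, chr12:109711842-109711863 (+ strand): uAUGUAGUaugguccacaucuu
miR-376b-3p, chr12:109723508-109723528 (+ strand): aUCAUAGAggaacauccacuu
miR-376a-3p, chr12:109723824-109723844 (+ strand): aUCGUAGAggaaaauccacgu
miR-300-3p, chr12:109724363-109724384 (+ strand): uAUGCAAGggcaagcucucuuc
miR-381-3p, chr12:109726870-109726891 (+ strand): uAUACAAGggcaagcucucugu
miR-323-3p, chr12:109712558-109712578 (+ strand): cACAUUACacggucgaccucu
miR-329-3p, chr12:109713541-109713562 (+ strand): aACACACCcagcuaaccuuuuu
miR-134-5p, chr12:109734145-109734166 (+ strand): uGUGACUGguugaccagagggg
miR-491-5p, chr4:88122057-88122078 (+ strand): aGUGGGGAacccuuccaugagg
miR-692, chr17:6895259-6895279 (- strand): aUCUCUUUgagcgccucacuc
Of 254 distinct seeds in the set, 36 were shared by at least 2 members. The 3p arms of Mir379 and Mir411 shared AUGUAAC, and miR-329-3p shared ACACACC with Mir362, a member outside chromosome 12. Mir376a and Mir376b, like Mir300 and Mir381, resemble each other along much of the printed arm, so some of their signal may be shared between their probe sets and their differences are not separate evidence.

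Array signals cannot be ranked between probe sets, because each has its own probes. Mean log2 signals ranged from 5.91 to 11.5 over the members, with a median of 7.42 against 8.59 over all genes tested. Of the members 166 reached 6 on all 12 arrays, 18 did not, and 0 reached 6 in a single group alone. The core was measured above this minimum throughout, with means from 6.37 (Mir376a) to 10.4 (Mir134) and 0 members short of 6 on any array. The median SD between arrays of a group was 0.097 over members and 0.104 over the core, against 0.070 over all genes, so small differences are harder to detect here than for an average gene. The third arrays of CON and of ASP+CGP stood apart, with an SD of 0.127 and 0.130 over the members around their group means against 0.067 to 0.099 on the other arrays. Some of the differences that turn on these arrays are given without them as well.

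More members passed the adjusted p in ASP+CGP against CON than in the other comparisons, 14 of 184, and 11 of these 14 lay in the chromosome 12 core. Of 184 members 4 were called lower in ASP+CGP (limma, adjusted p under 0.05 and a fold over 1.4), while 0.14% of all genes tested were, and 0 were called higher against 0.0407%. All 4, Mir379, Mir380, Mir376b and Mir300, are core members. By the adjusted p alone 11 of 27 core members were downregulated, 2 of 9 elsewhere in the domain and 1 of 144 outside it, where 0.919% of all genes were. At an unadjusted p under 0.05 stood 21 core members and 51 of all 184, against 15.4% of all genes. Of all 184 members 0 were upregulated by the adjusted p, against 0.826% of all genes. Of the 27 core members 25 lay below CON, against 52% of all genes, and their median log2 difference was -0.31, against 0.02 over the 144 microRNA genes elsewhere and 0.00 over all genes tested. Deviations of same-numbered CON and ASP+CGP arrays correlated at 0.17, 0.256 and 0.541, so that mainly the third arrays deviated together. The second CON array correlated more with the first ASP+CGP array (0.421), so a pairing by number was not established. The array number as a block in these pools was an alternative added after the data were seen, so its results lend no support to a call. With it 7 members were called (all genes 0.157% lower) and 18 core members passed the adjusted p (all genes 2.45% lower). The 3 added calls were Mir411, Mir376a and Mir692-1. A block over all 4 pools called 5 and passed 13 core members, and Mir541 then no longer passed (adjusted p = 0.056, limma). Since the set was drawn up with earlier results in view, these counts describe it and test nothing.

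**Figure D1:**
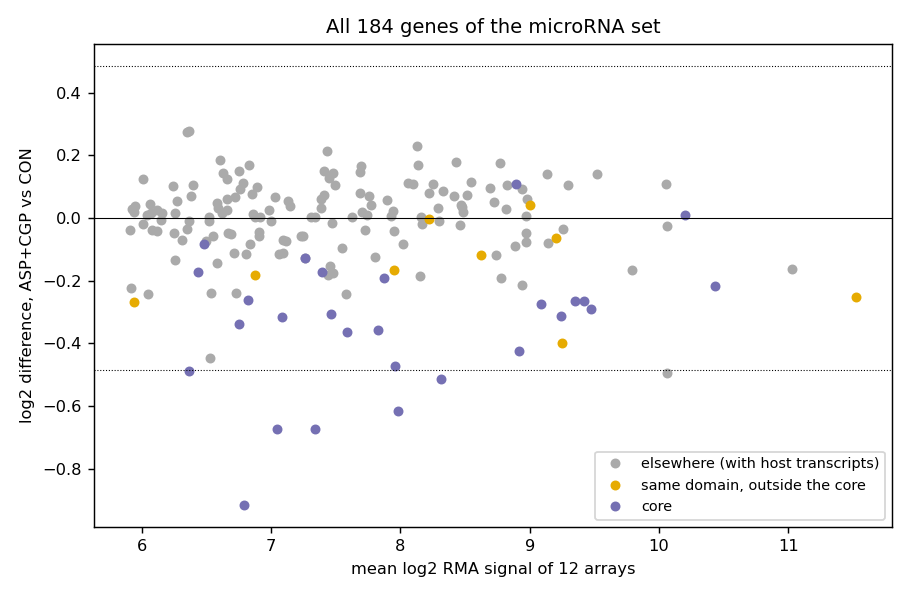
Each point is 1 of the 184 genes, with its mean log2 RMA signal over 12 arrays on the horizontal axis and its log2 difference of ASP+CGP from CON on the vertical axis; dotted lines mark a 1.4-fold difference. The core (purple) lies mostly below 0, with 4 called members under the lower line, while genes elsewhere (grey) lie around 0.

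Mir379, the first gene of the cluster, had the largest difference. It measured 7.25, 7.19 and 7.15 in CON, 6.84, 7.19 and 6.88 in CGP, 6.74, 6.57 and 6.88 in ASP, and 6.42, 6.32 and 6.10 in ASP+CGP. The ASP+CGP arrays were thus below all others, the ASP arrays lay below CON, and the CGP arrays reached into CON. In ASP+CGP it was 1.89-fold lower than in CON, with a log2 difference of -0.92 ± 0.10 (SE) and an adjusted p of 0.00027 in limma.

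Mir380 lies 2.7 kb further on. It measured 7.75, 7.51 and 7.67 in CON, 7.49, 7.62 and 7.42 in CGP, 7.34, 7.21 and 7.20 in ASP, and 6.88, 6.74 and 7.29 in ASP+CGP. The third ASP+CGP array lay among the ASP arrays, and the ASP+CGP and ASP arrays were all below CON. The difference of ASP+CGP was 1.59-fold (log2 -0.67 ± 0.11, adjusted p = 0.0066 in limma).

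Mir376b, whose hairpin is known as a target of A-to-I editing in brain, measured 8.56, 8.32 and 7.87 in CON, 8.14, 8.28 and 8.05 in CGP, 7.97, 7.83 and 7.82 in ASP, and 7.76, 7.76 and 7.38 in ASP+CGP. In both CON and ASP+CGP the third array was the lowest, and the lowest CON array stood just above the highest ASP+CGP array. The difference was 1.53-fold (log2 -0.62 ± 0.14, adjusted p = 0.046 in limma), and it was called under 12 of 27 alternative settings, at adjusted p-values of 0.00088 to 0.16. It passed with 1 of the 12 arrays left out in turn, the third CON array. Without the third arrays of CON and of ASP+CGP it was -0.68 (adjusted p = 0.0029 in limma). The lowest adjusted p, 0.00088 in limma, came from the block by array number in these pools. That block was chosen after the data were seen and lends the call no support.

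Mir300 was the most even of the 4. It measured 8.51, 8.50 and 8.54 in CON, 8.47, 8.44 and 8.28 in CGP, 8.36, 8.39 and 8.28 in ASP, and 8.05, 8.13 and 7.83 in ASP+CGP. Arrays of CGP and ASP overlapped each other, below CON and above ASP+CGP. It was 1.43-fold lower in ASP+CGP (log2 -0.51 ± 0.07, adjusted p = 0.0016 in limma), and came under the fold threshold without the third ASP+CGP array (log2 -0.43), without the third arrays of both pools (-0.41) and with array weights, still past the adjusted p each time.

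**Figure D2:**
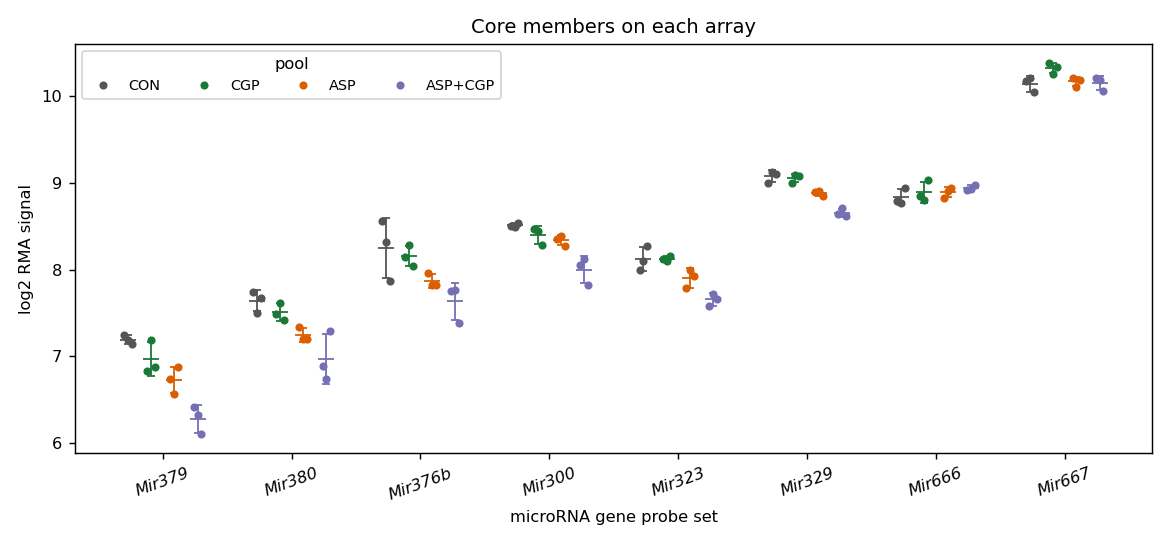
Points are the log2 RMA signals of 8 core members on each array, by pool, and bars show the mean ± SD of 3 arrays. ASP+CGP is lowest for Mir379, Mir380, Mir376b, Mir300, Mir323 and Mir329, and the pools overlap for Mir666 and Mir667.

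Among core members under the fold threshold, Mir329 and Mir134, together with Mir381 known for roles in dendrite growth, were tested in the same way. Mir329 measured 9.004, 9.133 and 9.105 in CON, 9.003, 9.097 and 9.078 in CGP, 8.899, 8.906 and 8.850 in ASP, and 8.639, 8.708 and 8.621 in ASP+CGP. CGP overlapped CON, all ASP arrays lay below both, and all ASP+CGP arrays lay lower still. It was downregulated in ASP+CGP by 0.42 ± 0.05 on the log2 scale (adjusted p = 0.00027, limma). Mir134 measured 10.44, 10.49 and 10.46 in CON, 10.58, 10.57 and 10.55 in CGP, 10.38, 10.50 and 10.48 in ASP, and 10.27, 10.27 and 10.20 in ASP+CGP. Only the ASP+CGP arrays were all below CON, the CGP arrays were all above it, and ASP overlapped it. Its log2 difference in ASP+CGP was -0.22 ± 0.04 (adjusted p = 0.023, limma).

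The other core members downregulated in ASP+CGP by the adjusted p were Mir323 (log2 -0.47), Mir369 (-0.36), Mir668 (-0.31), Mir485 (-0.27) and Mir541 (-0.26), with adjusted p-values of 0.003 to 0.044 in limma. With single arrays left out in turn, Mir323 and Mir369 passed in 12 of 12 fits, Mir668 in 11, Mir134 in 8, Mir485 in 3 and Mir541 in 1. Mir485 and Mir541 did not pass without the third CON array (adjusted p of 0.065 and 0.068 in limma). Mir411 had as large a difference as Mir380, -0.67, with a larger SE of 0.18 and an adjusted p of 0.078. The third CON array (6.88) lay below the other CON arrays (7.42 and 7.53). The third ASP+CGP array (6.19) lay below the others of that pool (6.70 and 6.93). Without these arrays Mir411 was called (-0.66, adjusted p = 0.0066 in limma). It was also called with the block in CON and ASP+CGP, which was chosen after the data were seen and lends no support. Mir376a differed from the rest in pattern. It was lower than CON by a similar amount in ASP (-0.51), CGP (-0.50) and ASP+CGP (-0.49), and none of these differences passed (adjusted p of 0.057, 0.16 and 0.11 in limma). With the same block the last of these was called, again without support to the call. Mir381 missed the threshold (-0.34, adjusted p = 0.053 in limma). Mir666 and Mir667 were the only core members with a mean above CON in ASP+CGP, at 0.11 ± 0.06 and 0.01 ± 0.06, and neither passed.

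Without the third arrays of CON and of ASP+CGP, 13 core members passed the adjusted p, 25 of 27 lay below CON and the median was -0.30. In 18 of 27 core members the ASP+CGP arrays were all below the CON arrays, against 10.2% of all genes tested. ASP+CGP had the lowest mean of the 4 pools for 24 of 27 core members and for 28 of 144 microRNA genes elsewhere. CON had the highest mean for 18 of 27. The means fell into the order CON above ASP above ASP+CGP for 22 of 27 core members and for 20 of 144 elsewhere.

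Along the cluster, the 9 members next to Mir379 had a median log2 difference of -0.42 in ASP+CGP, the middle 9 one of -0.34 and the last 9 one of -0.27. Within the first 9 the differences ranged from -0.92 for Mir379 to 0.11 for Mir666, which lies 8 kb downstream of it. The last 9 ranged more narrowly, from -0.36 (Mir369) to -0.08 (Mir496a). No test was made of this order, since neighbours share a transcript and a pool.

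**Figure D3:**
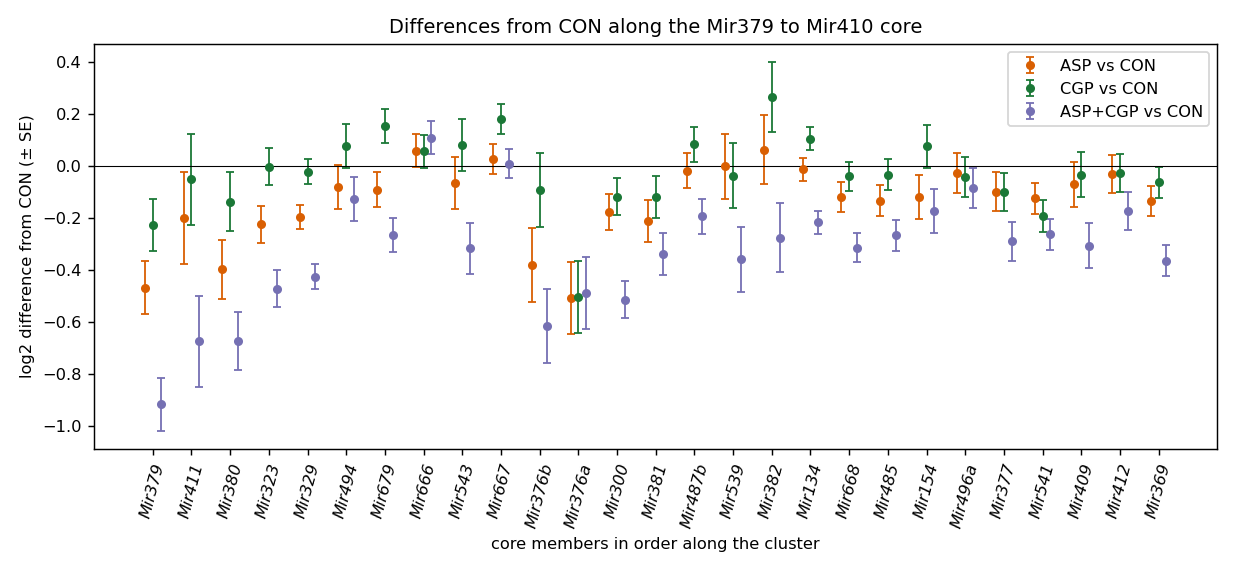
Log2 differences from CON (vertical axis, with bars of ± SE) are drawn for the 27 core members in their order from Mir379 (horizontal axis, not to scale) in ASP, CGP and ASP+CGP. ASP+CGP values lie below 0 for 25 members, from -0.92 at Mir379 to 0.11 at Mir666, while CGP values lie around 0.

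The median of the core, each array taken as its difference from the CON mean, was -0.02, 0.03 and 0.00 in CON and -0.05, 0.01 and -0.05 in CGP. In ASP it was -0.16, -0.10 and -0.16, and ASP+CGP gave -0.24, -0.29 and -0.35. The ASP arrays were all under the CON and CGP arrays, and the ASP+CGP arrays were all under the ASP arrays.

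**Figure D4:**
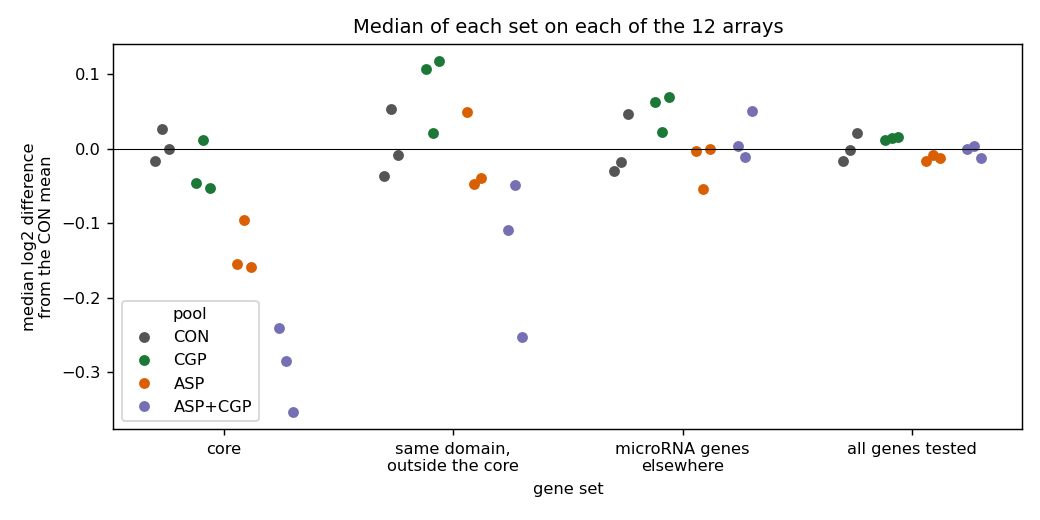
Each point is the median log2 difference from the CON mean over a gene set (horizontal axis) on 1 of 12 arrays. In the core the ASP+CGP arrays lie at -0.24 to -0.35, under the ASP arrays, and the sets of microRNA genes elsewhere and of all genes tested stay near 0.

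Markers of other tissues differed between the same pools. The summed signal of 7 pituitary markers was 13.97 to 14.04 in log2 units in CON, 14.9 in CGP, 15.0 in ASP, and only 11.8 to 12.0 in ASP+CGP. Summed hypothalamic markers (13 genes) were highest in CON, at 14.6 to 14.8, against 14.4 to 14.5 in ASP+CGP, and their median difference from CON was -0.19 in ASP+CGP, -0.15 in ASP and -0.26 in CGP. In ASP+CGP the 4 cerebellar markers had a median of 0.58 above CON and the 4 meningeal ones -0.49, while in ASP and CGP these medians lay between -0.11 and 0.16. Single meningeal markers differed in both directions in ASP, from -0.395 to 0.463, with 1 higher and 2 lower by the adjusted p. The 6 markers of habenula and thalamus were above CON in every treated pool, with medians of 0.27 in ASP, 0.49 in CGP and 0.40 in ASP+CGP. Summed choroid plexus markers (5 genes) were 12.02 to 12.19 in CON and 12.43 to 12.46 in CGP. They were 12.72 to 12.75 in ASP and 12.43 to 12.63 in ASP+CGP. Of these 5, 2 were called higher in ASP and 1 in ASP+CGP, against 1.02% and 0.0407% of all genes. The 6 adrenal cortex markers summed to 13.98 and above in ASP against 8.69 to 8.81 in the other pools. In ASP all 5 exocrine pancreas markers and all 6 adipose markers were called higher as well, with medians of 2.54 and 2.73, and 0 of them were called in CGP or ASP+CGP. By summed signal the pituitary markers were thus highest in ASP and lowest in ASP+CGP. Their median difference from CON was larger for CGP (1.08) than for ASP (0.86), and it was -0.88 with both agents. The core median was below CON in both pools with aspartame. The part of these tissues in the core result was not tested.

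Of 6 other genes of the domain, 1 passed the adjusted p in ASP (higher) and 1 in ASP+CGP (lower), Dlk1 in both. Of all genes 2.92% were higher in ASP and 0.919% lower in ASP+CGP by the adjusted p. In ASP against ASP+CGP 1 of the 6 was higher as well (all genes 4.25%), and 1 had a negative interaction (all genes 2.78%). The extremes of the 6 were 0.44 and -0.46 there. Meg3, the maternally expressed long RNA upstream of the cluster, measured 12.44, 12.50 and 12.44 in CON, 12.50, 12.55 and 12.48 in CGP, 12.41, 12.44 and 12.43 in ASP, and 12.35, 12.32 and 12.26 in ASP+CGP. The ASP+CGP arrays were below all others, but the difference of -0.15 ± 0.04 did not pass (adjusted p = 0.085, limma). Rian, a long RNA that hosts snoRNAs and Mir341, differed by -0.09 in ASP+CGP and -0.24 in ASP, neither passing (adjusted p of 0.61 and 0.11, limma). The promoter of Meg3 is shown because the microRNAs of the cluster mostly lay below CON together in ASP+CGP, though Meg3 itself did not pass. RefSeq gives 2 starts for Meg3, and 1 of the windows of 300 bases around them, chr12:109540746-109541045 (+ strand), holds the palindromic CRE motif TGACGTCA (both strands searched, in capitals).
Meg3 promoter: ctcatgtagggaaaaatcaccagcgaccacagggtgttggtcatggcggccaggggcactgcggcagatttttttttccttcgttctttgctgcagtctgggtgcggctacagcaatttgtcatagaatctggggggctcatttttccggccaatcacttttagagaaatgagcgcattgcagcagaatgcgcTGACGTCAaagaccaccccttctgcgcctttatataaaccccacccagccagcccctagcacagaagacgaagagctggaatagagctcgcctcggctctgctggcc
The motif was found in 588 of 32851 promoter windows, 1.79%.

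Dlk1, the paternally expressed Notch-family protein gene upstream of Meg3, went apart from the microRNAs in ASP. It measured 11.70, 11.80 and 11.86 in CON, 11.80, 11.79 and 11.83 in CGP, 11.96, 12.07 and 11.98 in ASP, and 11.60, 11.56 and 11.53 in ASP+CGP. ASP arrays were above and ASP+CGP arrays below all CON arrays. Dlk1 rose by 0.22 ± 0.05 in ASP (adjusted p = 0.019) and fell by 0.22 ± 0.05 in ASP+CGP (adjusted p = 0.038, limma), neither past the fold threshold. Dio3, Rtl1 and Begain passed in no comparison. Of the 9 members in the domain outside the core, Mir665 was downregulated in ASP+CGP, with 9.45, 9.30 and 9.52 in CON against 8.97, 8.94 and 9.17 (-0.40 ± 0.07, adjusted p = 0.011, limma), and its arrays did not overlap. Mir341 was downregulated as well (-0.25 ± 0.06, adjusted p = 0.035, limma). Mir665 passed in 10 of 12 fits with single arrays left out in turn, and Mir341 in 3. The median of the 9 was -0.17, with 8 of 9 below CON.

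In ASP 0 of 184 members were called against CON, with 1.02% of all genes tested called higher in ASP and 0.0291% called lower. By adjusted p alone 8 members were downregulated and 1 was upregulated, where all genes gave 1.16% and 2.92%, and 30 members had an unadjusted p under 0.05, against 16.9% of all genes. In the core 24 of 27 members lay below CON (all genes 56.4%), with a median of -0.12, and the arrays of 6 lay wholly below CON (all genes 13.9%). Mir379 (-0.47 ± 0.10, adjusted p = 0.017) and Mir329 (-0.20 ± 0.05, adjusted p = 0.031) passed in limma, Mir379 at just under the fold threshold of 0.49 on the log2 scale. This count of 2 core members was 0 without the second ASP array or over all deposited probe sets. It was 1 when a single array was left out that was the first or the third of ASP, the first or the second of CON, or the third of CGP, and 4 without the third ASP+CGP array.

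Outside the domain, 4 microRNA genes and 2 host transcripts were downregulated in ASP and 1 microRNA gene was upregulated. Mir491, which lies in an intron of Focad, measured 6.89, 6.85 and 6.85 in CON, 6.83, 6.84 and 6.82 in CGP, 6.57, 6.57 and 6.66 in ASP, and 6.56, 6.64 and 6.68 in ASP+CGP. Both pools with aspartame were below both pools without it, and the ASP and ASP+CGP arrays overlapped each other. The differences from CON were -0.26 ± 0.04 in ASP (adjusted p = 0.0026) and -0.24 ± 0.04 in ASP+CGP (adjusted p = 0.013, limma), while Focad itself did not pass (-0.06 in ASP, adjusted p = 0.69). Mir680-2 was lower in ASP by 0.33 on the log2 scale as well (9.14, 9.07 and 9.12 in CON against 8.82, 8.71 and 8.80, adjusted p = 0.001, limma), and its copy Mir680-1 is named for the same mature microRNA, so the probe sets may share signal. Neither Mir680-1 (-0.14, adjusted p = 0.21) nor Mir680-3 (-0.01, adjusted p = 0.97, limma), which share its seed, passed in ASP.

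Mir690 had the largest difference outside the domain, -0.48 ± 0.13 in ASP (adjusted p = 0.048, limma). It measured 6.63, 6.57 and 7.12 in CON and 6.47, 6.20 and 6.19 in ASP, so that the third CON array carried part of the distance, and without that array it was -0.31 and did not pass (adjusted p = 0.12, limma). Mir107, which lies in Pank1 and shares both seeds with Mir103-2, was lower by 0.21 on the log2 scale (adjusted p = 0.045, limma). Mir191 was the member upregulated in ASP, with 7.29, 7.36 and 7.32 in CON and 7.51, 7.49 and 7.67 in ASP (0.23 ± 0.06, adjusted p = 0.045, limma), and no ASP array overlapped CON. It was among 9 members whose ASP arrays all lay above CON, where 9.93% of all genes did. The host transcripts Mir99ahg (-0.26, adjusted p = 0.0087) and Mir100hg (-0.22, adjusted p = 0.022, limma), which carry relatives of the Mir99, let-7 and Mir125 families, were downregulated too. With single arrays left out in turn, Mir491, Mir680-2 and Mir99ahg passed in ASP in 12 of 12 fits, Mir100hg in 7, Mir690 and Mir107 in 4 and Mir191 in 2. Mir100hg, Mir107 and Mir191 did not pass without the third CON array either (adjusted p of 0.075, 0.14 and 0.1 in limma).

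**Figure D5:**
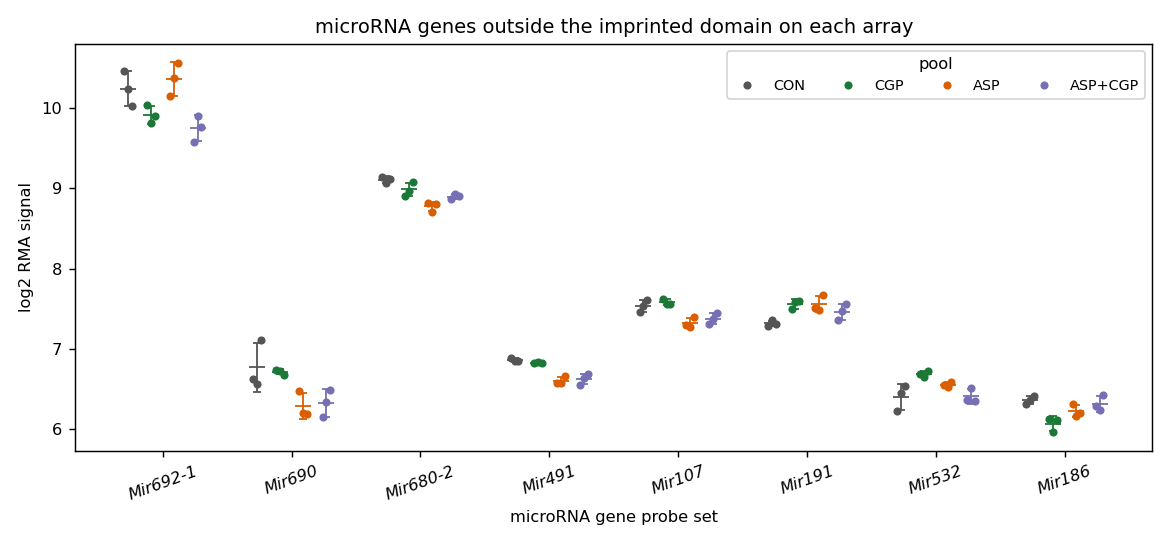
Log2 RMA signals of 8 microRNA genes outside the domain are drawn for each array by pool, with bars for the mean ± SD of 3 arrays. Mir491 lies lower in both pools with aspartame, and Mir692-1 lies higher in ASP than in ASP+CGP.

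In CGP 0 members were called against CON and 0 were past the adjusted p in limma, with 38 at an unadjusted p under 0.05, against 11.6% of all genes. Over all genes 0.0931% were called higher and 0.0175% lower, and 0.489% and 0.14% passed the adjusted p alone. Core members had a median of -0.03 and 18 of 27 lay below CON, against 41.9% of all genes. Mir186, Mir376a and Mir541 were among the members whose CGP arrays all lay below CON, as 7.39% of all genes did. The nearest member to the threshold was Mir186, which lies in Zranb2, at 6.13, 5.96 and 6.12 against 6.32, 6.37 and 6.42 in CON (-0.30 ± 0.06, adjusted p = 0.051, limma). Mir376a (-0.50) and Mir692-1 (-0.32) had the largest differences, and Mir375 (0.28), a microRNA of endocrine cells, and Mir532 (0.28) lay at the upper end, none of them passing.

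The comparison of ASP with ASP+CGP asks whether the aspartame groups differ by the antagonist, and it shares the ASP+CGP arrays with the comparison above. It called 1 member, Mir692-1, higher in ASP, and 0 lower, where 1.24% of all genes were called higher and 0.0349% lower. Mir692-1 measured 10.46, 10.23 and 10.02 in CON, 10.04, 9.81 and 9.90 in CGP, 10.14, 10.37 and 10.56 in ASP, and 9.58, 9.90 and 9.76 in ASP+CGP. ASP lay above ASP+CGP on every array and overlapped CON. The difference was 1.53-fold (0.61 ± 0.12 on the log2 scale, adjusted p = 0.0058, limma). The annotation places its sister copies Mir692-2 and Mir692-3 on probe sets shared with Ftl1, the ferritin light chain, and whether its own probes also read Ftl1 was not tested. By the adjusted p 5 core members were higher in ASP than in ASP+CGP, namely Mir379 (0.45), Mir300 (0.34), Mir329 (0.23), Mir369 (0.23) and Mir134 (0.21), all with adjusted p of 0.0086 to 0.032 in limma, against 4.25% of all genes. This count was 2 without the second or the third ASP array and 8 without the third CON array. Without the third arrays of CON and of ASP+CGP the count was 7, although Mir379 then did not pass (0.36, adjusted p = 0.059, limma). The core median was 0.20, and 2 of 27 lay below 0, against 53.9% of all genes.

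The interaction asks whether the aspartame difference itself depended on the antagonist. It called 0 of 184 members (all genes 0.145% higher and 1.35% lower). By adjusted p alone 4 members had a negative and 1 a positive interaction (all genes 2.78% and 1.23%), and 37 had an unadjusted p under 0.05, against 17.9% of all genes. In the core 25 of 27 values were negative (all genes 53.3%) with a median of -0.17, and Mir134 was the member to pass (-0.31 ± 0.06, adjusted p = 0.011, limma). For Mir379 the interaction was -0.22 ± 0.14 (adjusted p = 0.44, limma), so its larger difference in ASP+CGP was not shown to exceed the sum of the single ones.

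MicroRNAs typical of known cell types gave no calls. At most 1.35% of all genes were called in either direction of a comparison, and at most 4.25% passed the adjusted p. A count of 0 in sets this small is thus near the share over all genes. Neuronal microRNA genes (16 members, among them Mir124a-2, Mir9-1, Mir128-1, Mir132, Mir137 and Mir138-2) had medians of -0.02 in ASP, 0.03 in CGP and -0.02 in ASP+CGP, and 0 passed the adjusted p in limma in any comparison. The largest difference among them was that of Mir137 in ASP+CGP, with 7.63, 7.70 and 7.73 in CON against 7.45, 7.55 and 7.33 (-0.24 ± 0.07, adjusted p = 0.11, limma). Its arrays did not overlap. Of the 3 oligodendrocyte members, Mir219a-1, which promotes oligodendrocyte maturation, passed for the interaction alone. Mir200a and Mir200c of pituitary and sensory epithelium, Mir449a and Mir34b of ciliated cells, Mir216a of pancreas, Mir122 of liver, Mir150 and Mir155 of leukocytes and Mir143 and Mir145a of vessels did not pass in any comparison. In ASP+CGP Mir375 differed from CON by 0.12 ± 0.16 and Mir200a by 0.11 ± 0.05, neither passing. The summed pituitary markers were lower by at least 1.95 log2 units. A sum over messages and a single microRNA probe set are unlike measures, and their relation was not tested.

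Of 28 measured genes of the microRNA pathway, among them Drosha, Dgcr8, Dicer1, Xpo5 and Ago2, 0 were called in any comparison. Of all genes at most 1.35% were called in either direction of a comparison. By the adjusted p 2.92% of all genes were higher in ASP, 0.489% in CGP and 0.826% in ASP+CGP. Among the 28 only Adarb1, which encodes an adenosine deaminase that edits RNA including the Mir376 hairpins, passed the adjusted p. It measured 10.71, 10.73 and 10.63 in CON, 10.94, 10.98 and 10.91 in CGP, 10.86, 10.96 and 10.89 in ASP, and 10.99, 10.96 and 10.87 in ASP+CGP. Every treated array was above every CON array, and the log2 differences were 0.25 in ASP+CGP, 0.21 in ASP and 0.26 in CGP (adjusted p of 0.014, 0.019 and 0.023 in limma). The median of the list was -0.05 in ASP+CGP, with 22 of 28 below CON, against 52% of all genes.

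In 63 pairs of a member and a gene that overlaps it, both were measured. The sign of the difference from CON was that of the host for 44 of 63 pairs in ASP, 31 in CGP and 34 in ASP+CGP. Equal signs in unrelated pairs of genes were not counted, so these numbers have no reference. Mir107 in Pank1, Mir191 in Dalrd3, Mir186 in Zranb2 and Mir690 in Fgf12 had hosts that did not pass against CON. Pank1, for example, differed by -0.01 in ASP (adjusted p = 0.94, limma) where Mir107 differed by -0.21.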

How the data were processed

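The authors deposited a log2 signal for each probe set on each array, obtained with RMA in Partek (background correction, quantile normalization, median polish), from pooled hypothalamic RNA on 12 arrays. Quantile normalization removes a shift shared by most genes, and background understates the differences of dim probe sets. Of 29149 probe sets 19019 had 1 symbol in the platform annotation, and 17186 genes passed the minimum of 6 on 3 arrays (the brightest probe set on average was taken where a gene had more). Of 189 microRNA probe sets 187 passed.

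Differences were tested in R 4.3.3 with limma 3.58.1 (lmFit, eBayes) over the 12 arrays, a mean for each group and a common variance (8 residual and 5.43 prior degrees of freedom), following the study's ANOVA. Adjusted p-values are Benjamini-Hochberg over all 17186 genes within each of 5 contrasts. Values after ± are SEs. Array numbers come from the sample titles. Deviations of same-numbered CON and ASP+CGP arrays correlated at 0.17, 0.256 and 0.541, and the second CON array correlated more with the first ASP+CGP array (0.421). These 2 pools were blocked by array number as if paired, a choice made from these values, and the pairing itself was not established. Other pools were not taken as paired. The smallest two-sided p of an exact permutation test at 3 against 3 arrays is 0.1, and none was run. On simulated data for ASP vs CON with 17186 genes, calls recovered 88.1% of genes changed 1.5-fold and 100% of those changed 2-fold, and 0 others. Changes under 1.5-fold were not simulated. The median SD between arrays was 0.097 over members against 0.070 over all genes, so these shares do not carry over to the members.

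Members, gene lists and tests were chosen with earlier results of these data known. Named genes were those called, the extremes of each contrast among genes whose arrays did not overlap, the core, cell type microRNAs, hosts and domain genes. Mir341, Mir665, Mir491, Mir680-2 and Mir107 were added after their values were seen. Alternatives covered filters, probe set rules, normalization, tests, thresholds and left-out arrays, and a block for CON and ASP+CGP was added after seeing the data. Mir376c was not analysed here.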

Additional observations from a re-analysis of the deposited data

Results flagged for a closer look

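In 5 members the aspartame difference in the presence of CGP 39551 differed from that in its absence by the interaction term of limma, and 0 of them passed the fold threshold. Of 184 members 4 were negative and 1 was positive by the adjusted p, where 2.78% and 1.23% of all genes were. Mir134 had an interaction of -0.31 (adjusted p = 0.011), with a difference of ASP from CON of -0.01 and of ASP+CGP from CON of -0.22. Mir532, in Clcn5 on the X chromosome, had the largest at -0.43 (adjusted p = 0.027), with 0.15 in ASP, 0.28 in CGP and 0.00 in ASP+CGP. Mir191 had -0.33 (adjusted p = 0.048), from 0.23 in ASP, 0.24 in CGP and 0.15 in ASP+CGP. Mir219a-1 had -0.26 (adjusted p = 0.028), from 0.12 in ASP, 0.15 in CGP and 0.01 in ASP+CGP. Mir186 went the other way, with 0.39 (adjusted p = 0.023), from -0.14 in ASP, -0.30 in CGP and -0.05 in ASP+CGP. None of the hosts of Mir532, Mir191 and Mir186 passed for the interaction (adjusted p of 0.83, 0.51 and 0.17 in limma). When single arrays were left out in turn, Mir134 passed in 12 of 12 fits, Mir186 in 8, Mir532 in 5, Mir219a-1 in 4 and Mir191 in 1. Without the third CON array Mir186, Mir219a-1 and Mir191 did not pass (adjusted p of 0.051, 0.055 and 0.081 in limma).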

How the results depend on the processing

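The direction of the core held, since 25 of 27 members lay below CON in ASP+CGP under most settings (20 where the minimum was a signal of 7, which kept fewer members) and the number past the adjusted p ranged from 7 without moderation of the variance to 18 with array weights. Counts of called members were small and moved. In ASP vs CON the 0 called became 2 with further quantile normalization, with array weights or without the third arrays of CON and of ASP+CGP, 1 with an intensity trend and 9 with no fold threshold, and 0 to 2 when single arrays were left out. In ASP+CGP vs CON the 4 called became 2 without moderation, 14 with no fold threshold and 3 to 7 when single arrays were left out, the 7 without the third CON array. In ASP vs ASP+CGP the 1 called became 0 without moderation, 6 with no fold threshold and 1 to 2 with single arrays left out. In the interaction the 0 called became 1 with array weights, 5 with no fold threshold and 0 to 1 with single arrays left out. With the replicate block over all pools 1 was called there, and 13 core members passed the adjusted p in ASP+CGP vs CON against 11. With a replicate block in CON and ASP+CGP alone, chosen after seeing the data, 7 members were called in ASP+CGP vs CON against 4. Over all pairs of pools, deviations of same-numbered arrays correlated between -0.106 and 0.541. The core median ran from -0.337 to -0.263 in ASP+CGP vs CON with single arrays left out, the latter without the third ASP+CGP array, from 0.149 to 0.214 in ASP vs ASP+CGP and from -0.199 to -0.116 in the interaction. Without the third arrays of both pools it was 0.149 and -0.114 in these last comparisons. Mir667 changed sign in ASP+CGP vs CON from 0.01 to -0.040 without the third CON array, -0.020 without the first and -0.004 without the second ASP+CGP array, and rose to 0.054 without the third. Mir380 lost its call without moderation (adjusted p = 0.063 in an ordinary linear model), and Mir379 kept its call under all 27 settings run (log2 -0.985 to -0.824, adjusted p of at most 0.013 in limma and the ordinary linear model). The cause of these shifts was not tested. The number of arrays limits precision.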

Other observations

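A further 27 probe sets carried a microRNA symbol together with other symbols and were left out of the set, since their signal cannot be assigned. Of these 0 were called in any comparison in limma when tested in the same way. Of all genes tested at most 1.35% were called in either direction of a comparison. By adjusted p alone the ones to pass were probe sets of Mir692-2, Mir692-3 and Ftl1, with log2 differences of ASP from ASP+CGP of 0.27 to 0.32. Most of them also passed in ASP against CON (0.20 to 0.24, adjusted p of 0.0033 to 0.013 in limma). The same was so in the interaction (-0.28 to -0.23, adjusted p of 0.013 to 0.045 in limma).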
